A study of Homo sapiens with 3 samples.

Results

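The basal and activation keratins are 8 genes of the 58037 in the deposited count table, chosen by name. KRT5, KRT14 and KRT15 are the 3 basal keratins, and KRT6A, KRT6B, KRT6C, KRT16 and KRT17 are the 5 activation keratins. All 8 averaged 1 CPM (counts scaled to a common library size) or more over the libraries, which is the filter used for counts over all genes, and the counts of KRT5, KRT14 and KRT17 were among the 14 highest of all genes in every library. RWPE1 is an immortalized line of normal adult human prostate epithelium. Bulk RNA from it was sequenced as 3 libraries, with 1 each from OLFM4-wild cells, OLFM4-Knock out cells and cells labelled OLFM4-active. OLFM4 codes for olfactomedin 4, a secreted glycoprotein, and it was targeted with CRISPR/Cas9 plasmids. According to the study's methods, the transfected cells were selected with puromycin, both OLFM4-knockout and OLFM4-wild reporter cells were kept as clones, activation plasmids served to make the OLFM4-wild reporter cells, and RNA came from cells sorted for green fluorescent protein. The number of clones behind a library is not given in the sources used here, and each library is 1 sample, so differences below compare libraries and not conditions.

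Keratins form the intermediate filaments of epithelial cells. A filament is built from equal parts of type I and type II keratin, which pair with each other before they assemble, so the genes are often expressed in pairs. KRT5 (type II) and KRT14 (type I) make the main filament of basal cells, the cells that rest on the basement membrane, and KRT15 is a second type I keratin of basal cells. KRT6A, KRT6B and KRT6C (type II) with KRT16 and KRT17 (type I) are known as activation or stress keratins, because epidermal keratinocytes induce them after wounding and in hyperproliferative states. In the prostate, KRT5 and KRT14 mark basal cells, whereas KRT8 and KRT18 are the simple epithelial pair that is most abundant in luminal cells.

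The 4 type II genes lie side by side on the minus strand of chromosome 12 in GRCh38. In GENCODE version 44, KRT6B spans 52446651 to 52452146, KRT6C 52468516 to 52473805, KRT6A 52487176 to 52493257, and KRT5 52514575 to 52520530. The 4 type I genes lie on the minus strand of chromosome 17, with KRT15 at 41513745 to 41522529, KRT14 at 41582279 to 41586895, KRT16 at 41609778 to 41615899, and KRT17 at 41619442 to 41624842. KRT15 overlaps MIR6510 on the same strand by 2 exonic bases, and KRT17 overlaps an unnamed gene, ENSG00000289252, on the opposite strand, which a stranded count sets apart. The other 6 genes overlap no annotated gene.

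The KRT6 genes are close copies, and this decides how far their counts can be told apart. Over 1692 coding bases, KRT6A and KRT6B were 97.5% identical (42 differences), KRT6A and KRT6C 97.9% (35) and KRT6B and KRT6C 98.5% (25). The reads were 75 bases long, and 297 of the 1078 windows of that length that lie inside 1 coding exon, 27.6%, were the same in all 3 genes. The first 75 coding bases, in exon 1, are such a window. They are shown to make plain that a single read from here fits KRT6A (chr12:52493114-52493188), KRT6B (chr12:52452004-52452078) and KRT6C (chr12:52473663-52473737) equally well.
KRT6A, KRT6B and KRT6C: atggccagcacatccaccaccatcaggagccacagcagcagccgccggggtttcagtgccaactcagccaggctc

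The window with the most differences, coding bases 671 to 745 in exon 2, shows the opposite case. Capitals mark the 10 positions at which the 3 genes are not all alike. The window lies at chr12:52491532-52491606 in KRT6A, chr12:52450416-52450490 in KRT6B and chr12:52472076-52472150 in KRT6C, and all are printed along the minus strand.
KRT6A: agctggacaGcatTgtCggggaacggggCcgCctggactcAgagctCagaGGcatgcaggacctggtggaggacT
KRT6B: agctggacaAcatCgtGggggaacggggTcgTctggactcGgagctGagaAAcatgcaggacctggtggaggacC
KRT6C: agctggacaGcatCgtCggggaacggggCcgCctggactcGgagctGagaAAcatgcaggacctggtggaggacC

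Across the canonical transcripts, untranslated parts included, the share of 75-base windows found nowhere else in the reference chromosomes or in transcripts of other genes was lowest for KRT6C at 57.5%. It was 65.4% for KRT6B and 73.8% for KRT6A. KRT6C shared 750 windows with KRT6B and 565 with KRT6A. The other members were nearly unique by this measure, at 89.8% for KRT14, 90.4% for KRT16, 95.4% for KRT17, 97.2% for KRT5 and 100% for KRT15. KRT14 and KRT16, which are 86.7% identical over their aligned coding bases, shared 84 windows, and KRT16 shared 93 with its pseudogene KRT16P3. Since only uniquely mapped read pairs were counted, reads from shared windows were lost unless their mate reached a unique stretch, and the counts of KRT6A, KRT6B and KRT6C are uncertain to that extent.

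Only KRT5 of the 8 genes has an entry in the RefSeq promoter table used here (GRCh38.p14). The 110 bases before its RefSeq start site, chr12:52520395-52520504 on the minus strand, are shown because KRT5 had the highest level of the group. They lie inside the GENCODE span of KRT5, which reaches 52520530, so the RefSeq start lies downstream of the outermost GENCODE start. Capitals mark a match to the half-site of the p53 family and the TATA-like motif ATAAAA.
KRT5: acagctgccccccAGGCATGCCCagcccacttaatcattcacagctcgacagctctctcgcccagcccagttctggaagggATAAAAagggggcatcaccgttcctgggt

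Motifs were searched on both strands of the 250 bases before the RefSeq start, from which positions are counted. ATAAAA matched at -29, as it did somewhere in 14.9% of 34796 promoters of the same length, and the p53 family half-site matched at -97, against 5.59% of promoters. The motif TATAAA had no match in KRT5 and was found in 10.8% of promoters. The AP-1 site TGANTCA was absent too, against 6.59% of promoters, and so was the SP1 site GGGCGG, against 42.6%. These are matches of letters and say nothing of binding.

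The libraries differed in depth, with 16309906 counts in OLFM4-wild, 58837147 in OLFM4-knockout and 23224216 in the library labelled OLFM4-active, and the lowest count of any member was 1178, for KRT6B in the last of these. CPM are given over library sizes scaled with TMM factors (1.11, 0.872 and 1.03 in that order), which set the bulk of genes to be equal between libraries, and intervals in brackets are exact 95% Clopper-Pearson intervals, which cover counting error only. OLFM4 itself had 11.8 CPM (10.3 to 13.5) in OLFM4-wild, 2.55 (2.13 to 3.03) in OLFM4-knockout and 0.670 (0.383 to 1.09) in the library labelled OLFM4-active, from 214, 131 and 16 counts, and the last goes against its label. The 9 basal epithelial markers, led by COL17A1, ITGA6 and DST, were all expressed, with a summed level of 5908, 8882 and 7357 CPM in OLFM4-wild, OLFM4-knockout and the library labelled OLFM4-active. Luminal markers summed to 11.9 to 14.3 CPM over 7 genes, 4 of which had no more than 3 counts in any library. KRT8 and KRT18 are not in that list. In OLFM4-wild, OLFM4-knockout and the library labelled OLFM4-active, KRT8 had 282, 231 and 146 CPM and KRT18 had 177, 191 and 157. Fibroblast and smooth muscle markers summed to 35.8 to 58.0 CPM over 8 genes, leukocyte markers to 19.8 to 31.4 over 3, neuroendocrine markers to 0.715 to 0.963 over 5, and endothelial markers to 0.0837 to 0.605 over 3. KLK2, COL3A1, DES, INSM1, CDH5 and CD3E had no count in any library, and KLK3 had 2 counts in OLFM4-wild and none elsewhere. The fibroblast and smooth muscle sum was highest in OLFM4-wild, with MYH11 at a log2 fold change of -1.08 in OLFM4-knockout, and its part in the members' values was not tested.

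The basal pair was the backbone of the group. KRT5 had 12232 CPM (12182 to 12283) in OLFM4-wild, 27077 (27033 to 27122) in OLFM4-knockout and 13686 (13639 to 13732) in the library labelled OLFM4-active. By count it ranked 3, 2 and 3 among all genes. KRT14, its type I partner, had 4006 CPM (3977 to 4035), 9666 (9639 to 9693) and 5542 (5512 to 5572) in the same order, and ranked 14, 12 and 11 by count. Both genes were highest in OLFM4-knockout and lowest in OLFM4-wild.

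KRT15, the other basal type I keratin, was far less abundant and had another order. It had 127 CPM (121 to 132) in OLFM4-wild, 359 (354 to 364) in OLFM4-knockout and 97.2 (93.3 to 101) in the library labelled OLFM4-active. KRT15 was thus lowest in the library labelled OLFM4-active, where KRT14 was above its OLFM4-wild level.

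Among the activation keratins, KRT17 had the most counts, with 6028 CPM (5993 to 6064) in OLFM4-wild, 12048 (12018 to 12078) in OLFM4-knockout and 6696 (6663 to 6728) in the library labelled OLFM4-active. KRT17 is also present in basal cells of several glands and so is less specific to activation than KRT16. KRT16, the type I partner of the KRT6 keratins, had 1419 CPM (1401 to 1436), 2952 (2937 to 2967) and 991 (978 to 1004) in the same order. KRT17 and KRT16 thus differed in the library labelled OLFM4-active, where KRT17 was above and KRT16 below the OLFM4-wild library.

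KRT6A had most of the KRT6 counts, at 2756 CPM (2732 to 2780) in OLFM4-wild, 5994 (5973 to 6015) in OLFM4-knockout and 2960 (2938 to 2982) in the library labelled OLFM4-active. KRT6C had 226 (219 to 233), 475 (469 to 481) and 190 (184 to 195) CPM. KRT6B had 179 CPM (173 to 185), 158 (154 to 161) and 49.3 (46.5 to 52.2). KRT6B was the 1 member not highest in OLFM4-knockout, and its level in the library labelled OLFM4-active stood well under the other libraries.

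**Figure D1:**
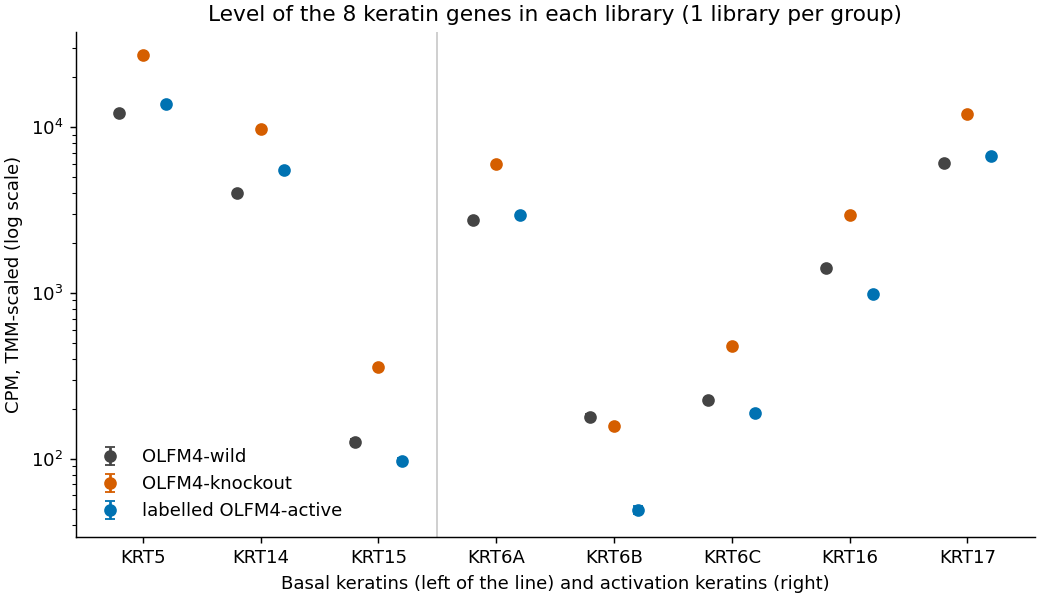
Level of each keratin gene in CPM scaled with TMM factors, on a log axis, with 1 point per library and 95% counting intervals that are mostly smaller than the points. The OLFM4-knockout point is the highest for 7 genes, KRT6B being the exception at 158 CPM against 179 in OLFM4-wild.

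Levels were compared between genes per kilobase of merged exons, the union of all annotated exons of a gene, in TMM-scaled CPM per kilobase. KRT5 was first in each library, at 2960, 6551 and 3311 CPM per kilobase in OLFM4-wild, OLFM4-knockout and the library labelled OLFM4-active. KRT17 and KRT14 followed, with 2012 against 1777 in OLFM4-wild, 4021 against 4287 in OLFM4-knockout and 2235 against 2458 in the library labelled OLFM4-active. Their order depended on the length used: per kilobase of the canonical transcript, KRT17 was second in all 3 libraries. KRT6A came next (942, 2049 and 1012) and then KRT16 (573, 1192 and 400), with each of the lengths tried.

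The last 3 places were held by KRT6B, KRT6C and KRT15. In OLFM4-wild, KRT6B and KRT6C lay at 77.6 and 77.5 CPM per kilobase, a gap smaller than their counting intervals, and KRT15 at 21.2. In OLFM4-knockout KRT6C had 163, KRT6B 68.6 and KRT15 60.2 CPM per kilobase, and in the library labelled OLFM4-active they had 65.0, 21.4 and 16.3. Per kilobase of canonical transcript, KRT15 came out above KRT6B in both of these libraries, so the order among the last 3 is not settled by these data. On the per kilobase scale the type II genes made up 48.1%, 48.0% and 46.3% of the members' level in OLFM4-wild, OLFM4-knockout and the library labelled OLFM4-active, and type I genes the rest.

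The first comparison sets the OLFM4-knockout library against the OLFM4-wild library. In OLFM4-knockout against OLFM4-wild, the log2 fold change was highest for KRT15, at 1.50 (1.44 to 1.57), followed by KRT14 at 1.27 (1.26 to 1.28) and KRT5 at 1.15 (1.14 to 1.15). These are folds of 2.84, 2.41 and 2.21, and all 3 basal keratins lay past 2-fold. Of the activation keratins, KRT6A was higher by a log2 fold change of 1.12 (1.11 to 1.13), KRT6C by 1.07 (1.02 to 1.12) and KRT16 by 1.06 (1.04 to 1.08). KRT17 had a log2 fold change of 0.999 (0.990 to 1.01) and so lay just under 2-fold, next to KRT16 just above it. KRT6B stood apart with a log2 fold change of -0.18 (-0.24 to -0.12).

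Hence 6 of the 8 members were more than 2-fold higher in the OLFM4-knockout library and 0 were more than 2-fold lower. Of the 16600 genes that averaged 1 CPM or more, 5.77% were more than 2-fold higher and 7.56% more than 2-fold lower, and the median log2 fold change was 1.10 over the members and 0.10 over all these genes. The fold change of KRT15 exceeded that of 98.4% of the genes, that of KRT17 94.2% and that of KRT6B 33.1%. Past a log2 fold change of 2 there were 0 members in either direction, where 0.663% of all genes were higher and 1.44% lower. The count depends on how the libraries are scaled. With library totals in place of TMM factors, every log2 fold change was lower by 0.35, KRT15 alone lay past 2-fold (1.15), and the shares over all genes were 2.22% higher and 13.9% lower. On that scale KRT5 was at 0.79, KRT14 at 0.92, KRT6A at 0.77, KRT6C at 0.72, KRT16 at 0.70, KRT17 at 0.65 and KRT6B at -0.53, so that no member changed its direction. With TMM factors from the OLFM4-wild and OLFM4-knockout libraries alone, 7 members lay past 2-fold and KRT17 was at 1.05. In bulk RNA, more cells of a keratin-rich kind and more keratin RNA per cell cannot be told apart.

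The second comparison sets cells labelled OLFM4-active against OLFM4-wild. The differences were small for most members and went both ways. KRT14 was higher by a log2 fold change of 0.47 (0.46 to 0.48), KRT5 by 0.16 (0.15 to 0.17), KRT17 by 0.15 (0.14 to 0.16) and KRT6A by 0.10 (0.09 to 0.12). KRT6C was at -0.25 (-0.32 to -0.19), KRT15 at -0.38 (-0.46 to -0.30) and KRT16 at -0.52 (-0.54 to -0.49). KRT6B was the exception, with a log2 fold change of -1.86 (-1.95 to -1.76), or 3.62-fold lower.

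KRT6B was thus the 1 of 8 members more than 2-fold lower, and 0 were more than 2-fold higher, where 6.73% and 3.78% of all genes were. Past a log2 fold change of 2 there was no member, against 1.54% of all genes lower and 0.506% higher. The median over the members was -0.08 and that over all genes 0.05. With library totals the members' values were lower by 0.11, KRT6A came to -0.01 and changed sign, and KRT6B lay at -1.97, with 8.36% of all genes more than 2-fold lower and 2.89% higher. The direction for KRT6A is therefore not settled, while the other 7 kept theirs under each scaling tried.

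Against the library labelled OLFM4-active, all 8 members were higher in OLFM4-knockout. These values follow from the other comparisons, since the same 3 libraries serve for all of them. The log2 fold change was 1.89 for KRT15 (1.82 to 1.95), 1.68 for KRT6B (1.59 to 1.77), 1.57 for KRT16 (1.56 to 1.59) and 1.32 for KRT6C (1.28 to 1.37). KRT6A was at 1.02, KRT5 at 0.98, KRT17 at 0.85 and KRT14 at 0.80. Thus 5 of the 8 members lay past 2-fold, against 2.95% of all genes higher and 3.39% lower. With library totals 4 of the 8 lay past 2-fold, KRT6A being at 0.78, against 1.28% of all genes higher and 6.84% lower. None lay past a log2 fold change of 2 on either scale, where 0.259% of genes were higher and 0.175% lower with TMM factors. Higher values in this comparison were not particular to the members. Of the 19 other keratin genes that averaged 1 CPM or more, 10 were more than 2-fold higher and 1 lower with TMM factors. Their median was 1.27, beside 1.17 for the members. The higher genes include KRT36 and KRT76, which passed the filter through OLFM4-knockout.

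**Figure D2:**
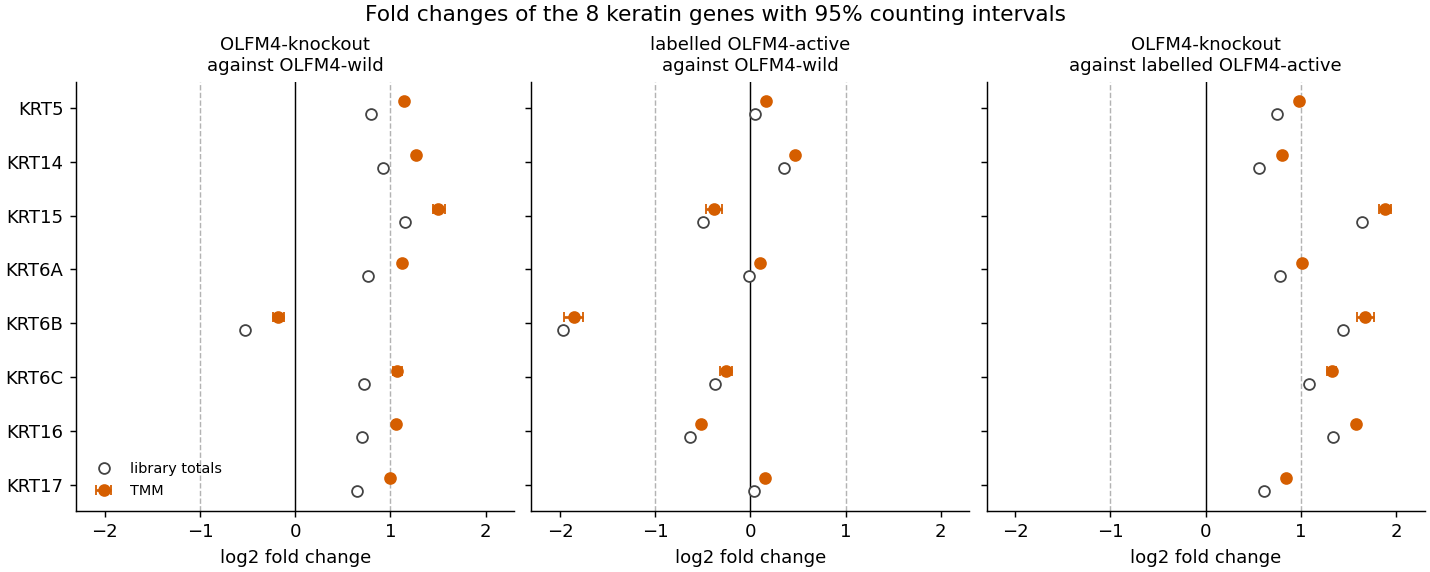
Log2 fold changes of the 8 keratin genes in the 3 comparisons, with TMM factors (filled, with 95% counting intervals) and with library totals (open); dashed lines mark 2-fold. In OLFM4-knockout against OLFM4-wild 7 genes lie to the right of 0 on both scales, and KRT6B lies at -0.18 and -0.53.

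Shares within a library do not depend on its scaling. The 8 genes took 3.005% of all counts in OLFM4-wild, 5.12% in OLFM4-knockout and 3.11% in the library labelled OLFM4-active. Of the counts of all 55 keratin genes in the annotation they took 88.2%, 92.5% and 92.9%. Few genes therefore carried nearly all of the keratin RNA in each library.

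Within the group, the activation keratins held 39.3% of the counts (39.2 to 39.5) in OLFM4-wild, 36.8% (36.8 to 36.9) in OLFM4-knockout and 36.0% (35.9 to 36.1) in the library labelled OLFM4-active. The share was highest in OLFM4-wild, although the levels of 4 of the 5 genes were higher in OLFM4-knockout. It was higher when counts were taken per kilobase, at 43.6%, 40.7% and 39.2%, with the same order of libraries. KRT17 made up most of it: without KRT17 the share was 21.9%, 20.5% and 17.8%.

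The partners differed between libraries by unequal factors. KRT5 held 75.3% of the KRT5 and KRT14 counts in OLFM4-wild, 73.7% in OLFM4-knockout and 71.2% in the library labelled OLFM4-active, so the KRT14 part of the pair was larger in both of the other libraries. KRT15 held 3.06%, 3.58% and 1.72% of the counts of the basal type I pair KRT14 and KRT15. KRT16 held 19.1%, 19.7% and 12.9% of the counts of KRT16 and KRT17. The KRT16 share was thus about level in the first libraries and lower in the library labelled OLFM4-active.

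Within the KRT6 genes, KRT6A held 87.2% (86.9 to 87.5) of the counts in OLFM4-wild, 90.5% (90.4 to 90.5) in OLFM4-knockout and 92.5% (92.3 to 92.7) in the library labelled OLFM4-active. The share of KRT6B was 5.65% (5.47 to 5.85), 2.38% (2.33 to 2.43) and 1.54% (1.46 to 1.63). KRT6C held 7.15%, 7.17% and 5.93%. KRT6B thus had the lowest share of the 3 genes in each library, and relative to KRT6A its log2 ratio was lower by 1.30 in OLFM4-knockout and by 1.96 in the library labelled OLFM4-active than in OLFM4-wild. The sequences printed above bear on how reads are divided among these genes, and the part that shared windows play in these shares was not tested.

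**Figure D3:**
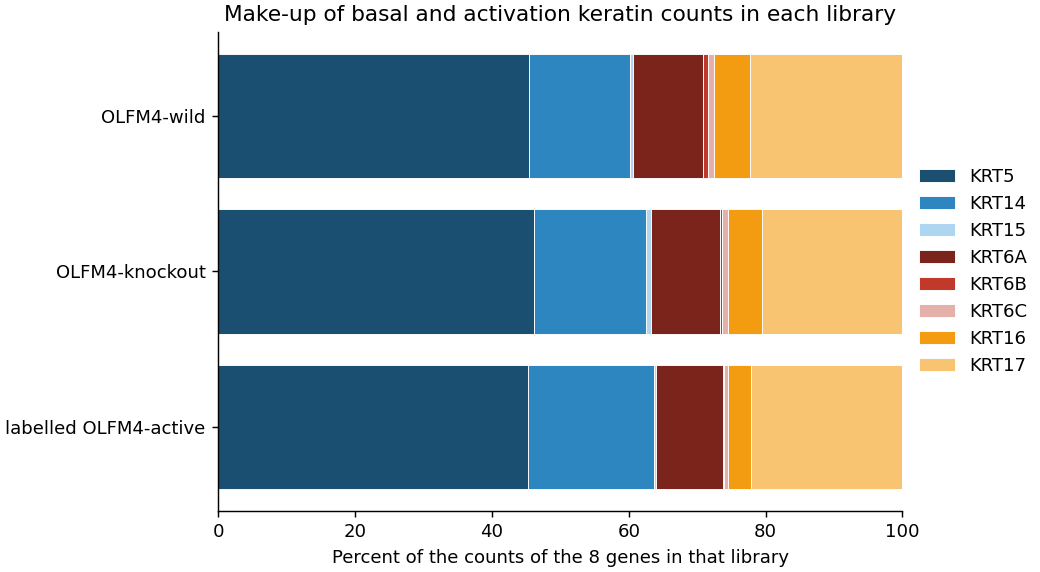
Percent of the counts of the 8 genes held by each gene, 1 bar per library, each adding up to the whole. KRT5 holds 45.4%, 46.1% and 45.3% from top to bottom, and KRT16 5.26%, 5.03% and 3.28%.

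KRT16 and KRT17 have pseudogenes, and reads from the parent genes can fit them. The 14 that matched by name summed to 0.288%, 0.389% and 0.412% of the counts of members and pseudogenes together in OLFM4-wild, OLFM4-knockout and the library labelled OLFM4-active. KRT17P2 had the most, with 515, 4403 and 1143 counts, followed by KRT16P1 with 509, 4276 and 1134, and 4 pseudogenes had no count in any library. Beside 618448 counts of KRT17 and 151538 of KRT16 in OLFM4-knockout, these were few.

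In the keratin gene clusters the members' neighbours were mixed. Of the 55 genes, 27 averaged 1 CPM or more, and 13 of these were more than 2-fold higher and 2 lower in OLFM4-knockout against OLFM4-wild. Without the members these counts were 7 and 2 of 19 genes, with a median log2 fold change of 0.28 beside 1.10 for the members. Over all genes, 5.77% were higher and 7.56% lower. With library totals 5 of the 19 were more than 2-fold higher and 5 lower, with a median of -0.07. On both scales the higher genes include KRT36 and KRT76, named after their values were seen. They had 5.84 and 16.8 CPM in OLFM4-knockout and 1.10 CPM or less elsewhere. Both passed the filter through OLFM4-knockout, so their place among the higher genes follows from the filter. KRT75, a companion layer keratin of the hair follicle and the neighbour of KRT6B, had 277, 5576 and 94 counts in OLFM4-wild, OLFM4-knockout and the library labelled OLFM4-active, a log2 fold change of 2.83 in OLFM4-knockout where KRT6B was at -0.18. KRT13, a keratin of stratified internal epithelia that lies next to KRT15, had a log2 fold change of 1.30 beside 1.50 for KRT15. In the library labelled OLFM4-active, 7 of the 19 other keratins were more than 2-fold lower than in OLFM4-wild and 1 was higher. Over all genes, 6.73% were lower and 3.78% higher. The higher keratin was KRT71 at 1.40 (0.41 to 2.63), named after its value was seen. It had 10 counts in OLFM4-wild and 36 in the library labelled OLFM4-active, and its interval reaches below 2-fold. KRT76, among the lower keratins, had 20 and 5 counts. KRT75 was at -1.95 next to KRT6B at -1.86.

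**Figure D4:**
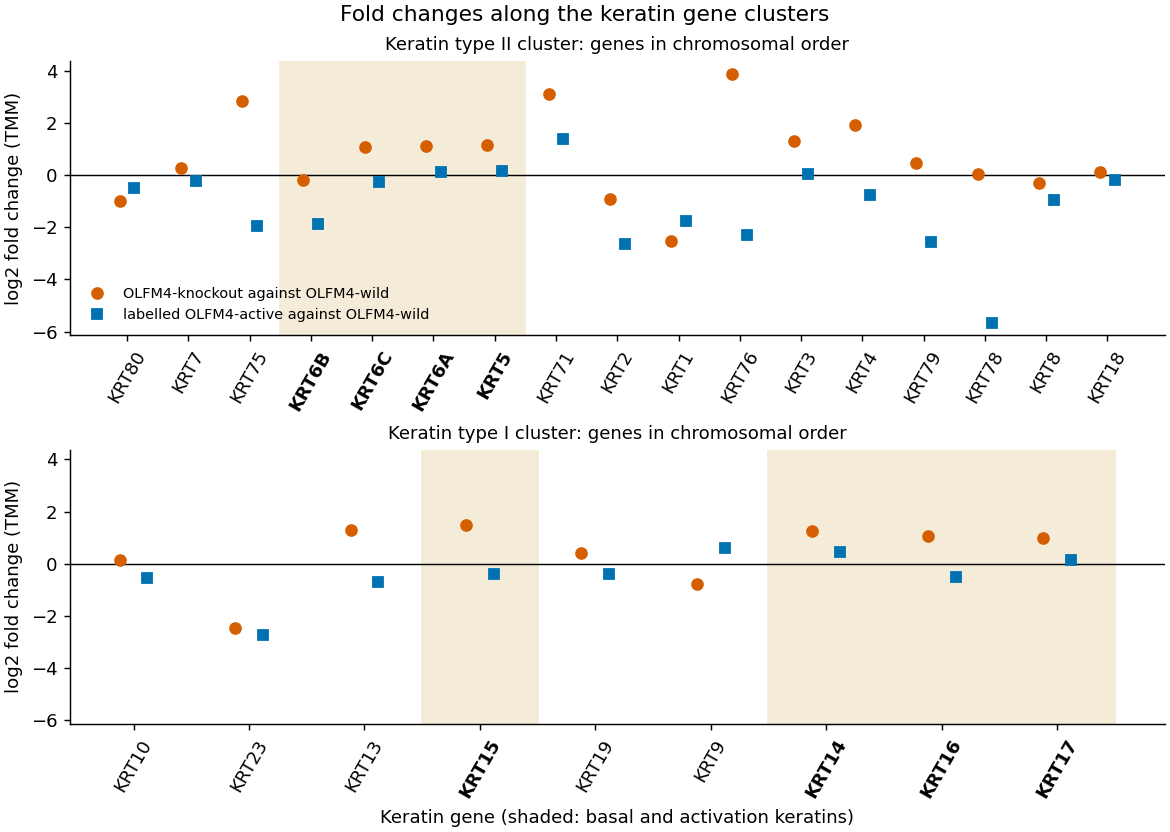
Log2 fold changes with TMM factors of keratin genes that average 1 CPM or more with more than 3 counts in each library, in chromosomal order, with 17 genes in the type II cluster (KRT18 lies there too) and 9 in the type I cluster; shading marks the 8 members. In the type II cluster KRT6B lies between KRT75, at 2.83 in OLFM4-knockout, and KRT6C, at 1.07.

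Keratins of other epithelial layers lay on both sides of 0 in OLFM4-knockout against OLFM4-wild. Of the 4 simple epithelial keratins expressed, KRT7, KRT8, KRT18 and KRT19, none lay past 2-fold, with log2 fold changes of -0.29 for KRT8 to 0.42 for KRT19 and a median of 0.20. Of 12 suprabasal keratins, which belong to differentiated layers, 4 were more than 2-fold higher and 2 lower. Over all genes these shares were 5.77% and 7.56%. The median of the 12 suprabasal keratins was 0.08. With library totals the balance turned, to 2 higher and 5 lower and a median of -0.27, and the median of the simple keratins came to -0.15. KRT4 and KRT13, the pair of stratified mucosa, were at 1.92 and 1.30, KRT1, an epidermal differentiation keratin, was at -2.53, and KRT10, the partner of KRT1 and the most abundant of the list, was at 0.13. The others past 2-fold had lower levels and are named because the counts include them, after their values were seen: KRT76 at 3.90 and KRT3 at 1.32 were higher, and KRT23 at -2.47 was lower. KRT76 passed the filter through OLFM4-knockout, so its place among the higher genes follows from the filter. In the library labelled OLFM4-active 0 of the 12 were more than 2-fold higher and 6 lower, with KRT4 at -0.74 and KRT1 at -1.75.

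Genes whose proteins anchor keratin filaments to desmosomes and hemidesmosomes differed less in RNA, by median, than the members in OLFM4-knockout against OLFM4-wild. Of 15 anchor and assembly genes, all expressed, 2 were more than 2-fold higher and 0 lower in OLFM4-knockout against OLFM4-wild, with a median of 0.51. These were PLEC, which codes for plectin, a linker of filaments to hemidesmosomes, at 1.10, and the desmosomal plaque gene PKP2 at 1.09, and both were also higher in the library labelled OLFM4-active, at 1.24 and 1.31. DSP, which codes for desmoplakin and was the most abundant of the list, was at -0.22, and PKP1 at 0.35. With library totals no gene of the list lay past 2-fold in OLFM4-knockout. Of the 9 basal epithelial markers, all had log2 fold changes above 0 with a median of 0.52 (0.17 with library totals, where not all were above 0 and TP63 was at -0.16), and 1 of 9 lay past 2-fold, NGFR at 1.20 (named after its value was seen), so the basal keratins exceeded most of the other basal genes in size of change.

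Known regulators of these keratins gave a mixed picture. Of the 17 expressed, 2 were more than 2-fold higher and 2 lower in OLFM4-knockout against OLFM4-wild, where 5.77% and 7.56% of all genes were. The median of the regulators was 0.04, near the 0.10 over all genes. With library totals 2 were higher and 3 lower, with a median of -0.32. The AP-1 genes FOS and FOSL1 were higher, at 1.60 and 1.96, FOSL2, of the same family, was at -1.23, and TP63, a transcription factor of basal cells that drives KRT5 and KRT14, was at 0.19. KLF5, the most abundant of the list, was at 0.82. The other gene past 2-fold was GLI2 at -1.53, named after its value was seen. GLI2 had 2.59 CPM in OLFM4-wild and 0.896 CPM in OLFM4-knockout, from 47 and 46 counts. It passed the filter through OLFM4-wild, so its place among the lower genes depends on the filter. In the library labelled OLFM4-active FOS was at 1.03, FOSL1 at 2.86 and TP63 at 0.12, beside KRT14 at 0.47 and KRT16 at -0.52.

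Signals that induce activation keratins at wounds were also split. Of 9 expressed, 2 were more than 2-fold higher and 1 lower in OLFM4-knockout against OLFM4-wild, where 5.77% and 7.56% of all genes were. With library totals it was 1 higher and 2 lower. The EGF receptor ligands EREG and TGFA were at 2.28 and 1.01 and AREG at 0.72, the cytokine gene IL18 at 0.43, and the receptor gene EGFR, the most abundant, was at -0.26. The gene past 2-fold lower was IL1R1 at -1.75, named after its value was seen. In the library labelled OLFM4-active EREG was at 2.75, AREG at 1.35 and TGFA at 0.90, while the activation keratins had a median of -0.25.

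The genes that accompany KRT6 and KRT16 in wounded and inflamed epidermis were mostly lower in both other libraries than in OLFM4-wild. The members were mostly higher in OLFM4-knockout, but had a median of -0.08 in the library labelled OLFM4-active. Of 11 expressed companions, 8 were more than 2-fold lower and 1 higher in OLFM4-knockout against OLFM4-wild, with a median of -2.04, and 8 were lower and 0 higher in the library labelled OLFM4-active, with a median of -2.45. These include S100A7 and SPRR2A, named after their values were seen, at 3.25 and 6.77 CPM in OLFM4-wild and 0.628 CPM or less elsewhere. Both passed the filter through OLFM4-wild, so their place among the lower genes follows from the filter. S100A8 and S100A9, which code for the subunits of calprotectin, had 155 and 363 CPM in OLFM4-wild, 22.1 and 88.1 in OLFM4-knockout and 18.5 and 50.9 in the library labelled OLFM4-active. Their log2 fold changes in OLFM4-knockout were -2.81 and -2.04, where KRT6A was at 1.12 and KRT16 at 1.06. The elastase inhibitor gene PI3 was at -4.18, and the cornified envelope genes SPRR1A and SPRR1B were at -2.02 and -1.10. TGM1, the transglutaminase that crosslinks the envelope, was the exception at 1.04. With library totals 9 of the 11 were more than 2-fold lower in OLFM4-knockout and 0 higher.

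**Figure D5:**
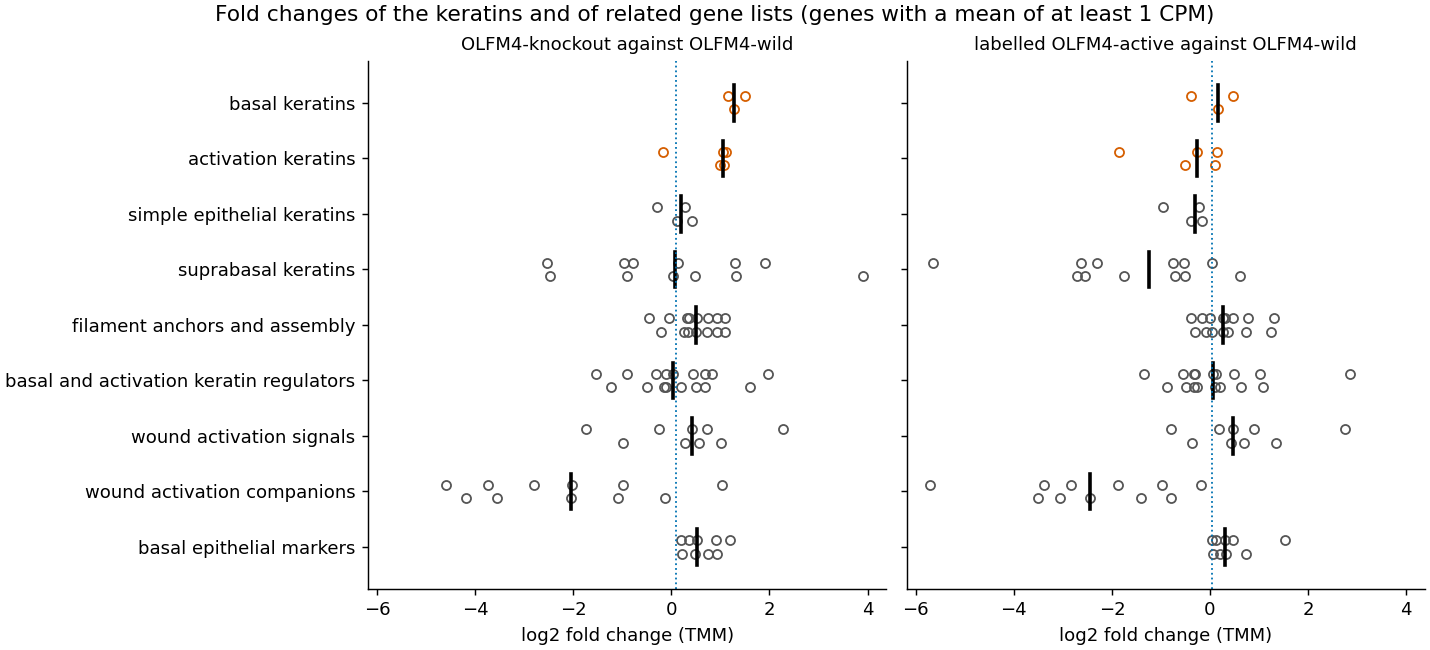
Log2 fold changes with TMM factors of genes that average 1 CPM or more, 1 circle per gene, for the basal and activation keratins (orange) and related lists (grey), in OLFM4-knockout (left) and the library labelled OLFM4-active (right) against OLFM4-wild. Black bars are list medians and the dotted line is the median of all genes; in the left panel the activation keratins lie at a median of 1.06 and the wound activation companions at -2.04.

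The genes nearest to each member in the pair of log2 fold changes against OLFM4-wild were found by Euclidean distance over 2 comparisons that share the OLFM4-wild library, among 9654 protein-coding genes that averaged 10 CPM or more. KRT5 was nearest to HSD17B10 and FXYD3, at distances of 0.0472 and 0.0478, KRT14 to TUBB3 and RPS6KA4, KRT17 to IER5L and ZNF232, and KRT6A to GLUL and HSD17B10. KRT6C was nearest to TGM1 and MZT2B, at 0.0835 and 0.0941, and KRT16 to LRRC45 and PSMB10, at 0.0743 and 0.173. For KRT6B the distances were 0.193 to GAS1 and 0.205 to DDIT4, and for KRT15, the farthest from any other gene, 0.361 to ID1 and 0.389 to KRT13. DDIT4 had 352, 277 and 106 CPM in OLFM4-wild, OLFM4-knockout and the library labelled OLFM4-active, beside 179, 158 and 49.3 CPM for KRT6B. Their shared order of libraries follows from the way the nearest genes were picked.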

How the data were processed

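Bulk RNA of RWPE1 cells was sequenced in 3 libraries, 1 per condition, as stranded, ribosome-depleted read pairs. The authors trimmed reads with cutadapt, aligned them to GRCh38 with HISAT2 and deposited raw counts of uniquely mapped, reversely stranded pairs per gene from featureCounts. The release of the annotation is not given in the sources used here. Positions and exon lengths were taken from GENCODE version 44.

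Library sizes were scaled with TMM factors of edgeR 4.0.16 in R 4.3.3, and log2 CPM follow the voom formula (limma 3.58.1), with 0.5 counts added. With 1 library per group no test was possible. Log2 fold changes have conditional Clopper-Pearson intervals at 95%, and genes past 2-fold were counted among the 16600 that averaged 1 CPM or more. The interval procedure was tested on simulated data. Of the related lists, genes are named that averaged 10 CPM or more and lay past 2-fold in OLFM4-knockout against OLFM4-wild, with the 3 most abundant of a list, and the 2 genes nearest to each member. Some genes of the lists are not reported here by name. Members and lists were chosen with earlier results of these data known. Transcripts were cut into 75-base windows and searched on both strands of the reference chromosomes and in other genes' transcripts. Alternatives were other scalings, including size factors of DESeq2 1.42.0, an offset of 5 counts, thinning, a threshold of log2 fold change 2 and other gene lengths.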

Additional observations from a re-analysis of the deposited data

How the results depend on the processing

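The log2 fold changes of the members kept their direction under each scaling, the offset of 5 counts and thinning to the smallest total, except KRT6A in cells labelled OLFM4-active against OLFM4-wild, which was -0.012 with library totals and -0.027 with totals that leave out the members and the 10 most abundant genes. The number of members more than 2-fold higher in OLFM4-knockout against OLFM4-wild, 6 with TMM factors, was 1 with library totals, 2 with totals without the members and the 10 most abundant genes, 3 with TMM on genes that average 1 CPM or more, 4 with upper quartile factors and 7 with DESeq2 size factors. Beyond a log2 fold change of 2 it was 0, as was the number lower in the library labelled OLFM4-active and the number higher in OLFM4-knockout against that library. The activation share of the counts in OLFM4-wild, OLFM4-knockout and the library labelled OLFM4-active was 43.6%, 40.7% and 39.2% per kilobase of merged exons, 45.6%, 42.8% and 41.7% per kilobase of uniquely mappable positions, 21.9%, 20.5% and 17.8% without KRT17, and, chosen after seeing the data, 43.7%, 40.9% and 40.1% per kilobase of canonical transcript. TMM factors without the library labelled OLFM4-active, also added after seeing the data, gave 7 members past 2-fold. No paired analysis was possible because each group has 1 library, and for the same reason no library could be left out of a group. Counting error is small for these genes, and the spread between cultures or clones is not measured.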
